A study of Bos taurus with 6 samples.

Results

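The nuclear-encoded subunits of oxidative phosphorylation were examined in cultured stromal fibroblasts of the bovine ovary. Members were the genes whose symbol on the array named a subunit of complexes I to V and whose probe set carried that symbol alone, with the brightest probe set taken for each gene. The choice gave 76 of 18010 measured genes, with 32 in complex I, 3 in complex II, 8 in complex III, 16 in complex IV and 17 in complex V. All were measured in 3 samples of normal and 3 of tumor stromal cells, cultured in serum-containing DMEM/F12 with no treatment. The labels named neither the type of tumor nor the animals, and did not say that samples of a group came from separate animals or cultures, so the p-values reflect only how far these particular samples spread, and that spread may be technical. A further 7 subunit genes (ATP5MK, COX5B, COX6B1, NDUFA2, NDUFB8, SDHC and UQCRC2) shared every probe set with other genes and were left out, while NDUFA1, COX8C and the subunits encoded in mitochondrial DNA were not analysed here.

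Oxidative phosphorylation couples the oxidation of NADH and succinate to the making of ATP at the inner mitochondrial membrane. Complexes I and II pass electrons to ubiquinone, complex III passes them to cytochrome c, and complex IV hands them to oxygen. Complexes I, III and IV pump protons, and complex V, the ATP synthase, uses the return flow to make ATP. Some subunits exist in tissue-specific forms encoded by separate genes, above all in complex IV. Fibroblasts in culture can meet much of their ATP need by glycolysis.

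Values are log2 expression levels made with RMA, which corrects background, normalizes arrays and summarises probes, so a difference of 1 is a 2-fold change. Differences are tumor minus normal with their standard errors, and a gene was called at an adjusted p under 0.05 (limma, Benjamini-Hochberg adjustment over all 18010 genes). Sample medians over all probe sets ran from 4.45 to 4.55. Both groups carried the fibroblast transcripts COL1A1 (11.94 ± 0.10 in normal and 11.95 ± 0.06 in tumor cells, SD, n = 3), COL1A2 and LUM near the top of the scale. Over all genes 8.56% were called higher and 9.44% lower in tumor cells, and the marker counts that follow stand against these shares. Of 12 fibroblast markers 3 rose in tumor cells, S100A4 (3.46 ± 0.36), PDGFRA (0.89 ± 0.20) and COL3A1 (0.61 ± 0.14), the calls of PDGFRA and COL3A1 being lost without tumor 1 or tumor 2. The mean of that list ran from 10.26 to 10.61 in normal and from 10.94 to 11.10 in tumor samples. The leukocyte marker PTPRC and the epithelial marker EPCAM lay in both groups under 3.54, a guide to background set so that 95% of the group means of olfactory receptor genes lie under it. The leukocyte markers CD14 (5.42 in normal and 5.64 in tumor cells), CD68 and CSF1R lay above this guide in both groups, and ITGAM lay under it in both. The keratins KRT18 and KRT19 moved with the groups. KRT18 was at 7.50, 7.99 and 5.93 in the normal samples against 4.54, 4.32 and 4.23 in the tumor samples, and KRT19 at 6.07, 6.23 and 5.79 against 4.09, 3.67 and 4.17. Of 7 epithelial markers 3 fell, the third being KRT8, whose call was lost without any 1 sample but normal 3. KRT7 did not pass (0.21 ± 0.18), and its groups overlapped. The list mean ran from 4.12 to 4.66 in normal and from 3.59 to 3.67 in tumor samples. Of the other marker lists, 1 of 6 leukocyte markers rose (CD68, 1.15 ± 0.17), 1 of 6 granulosa markers fell (FOXL2, -1.69 ± 0.15, with its tumor mean of 3.35 under the olfactory receptor level) and 1 rose (INHBB, 1.11 ± 0.17), and 2 of 5 smooth muscle and pericyte markers fell (DES and CSPG4) and 1 rose (MYH11). Counts this small do not show a change of a list. Of 5 endothelial markers 0 were called in limma, and 0 had an unadjusted p under 0.05. The sample means of these lists ran from 3.69 to 3.93 in normal and 4.02 to 4.19 in tumor cells for leukocytes, 3.38 to 3.59 and 3.42 to 3.58 for granulosa cells, 6.65 to 6.90 and 6.56 to 7.44 for smooth muscle and pericytes, and 3.28 to 3.34 and 3.14 to 3.27 for endothelium. DES (means of 11.88 in normal and 10.79 in tumor cells) and CNN1 (10.11 and 10.34) were bright in both groups, while MYH11, RGS5 and CSPG4 were dimmer. The calls of DES and MYH11 were lost without normal 2, and that of MYH11 also without normal 1, normal 3 or tumor 2. The part of these markers in the results that follow was not tested. In cultures measured in bulk, fewer cells of a type and less RNA per cell cannot be told apart.

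In each of the 5 complexes at least 1 subunit transcript fell in tumor stromal cells, by modest amounts, and in complex II this was SDHA alone. Since 9.44% of all genes fell, 1 call in a complex does not show a change of that complex. Of the 76 members, 27 fell and 1 rose, against 9.44% of all genes that fell and 8.56% that rose. The share of members that fell was 35.5%. The difference was below 0 in 66 members (over all genes in 47.8%) and above 0 in 10, with a median of -0.38, against a median of 0.02 over all genes. Differences ran from -1.16 for ATP5MC1 to 0.83 for COX7A1. Every tumor sample lay below every normal sample in 43 members and above in 4, where 18.1% and 17.6% of all genes were placed so. At an unadjusted p under 0.05, 39 members were lower and 2 higher, against 16.1% and 14.9% of all genes. The number that fell depended on the samples kept. It was 7 (9.21% of members, against 4.94% of all genes) without normal 2, 12 (15.8% against 7.01%) without normal 3, 11 (14.5% against 5.52%) without tumor 1 and 10 (13.2% against 5.43%) without tumor 2. Without normal 1 it was 27 and without tumor 3 it was 23.

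**Figure D1:**
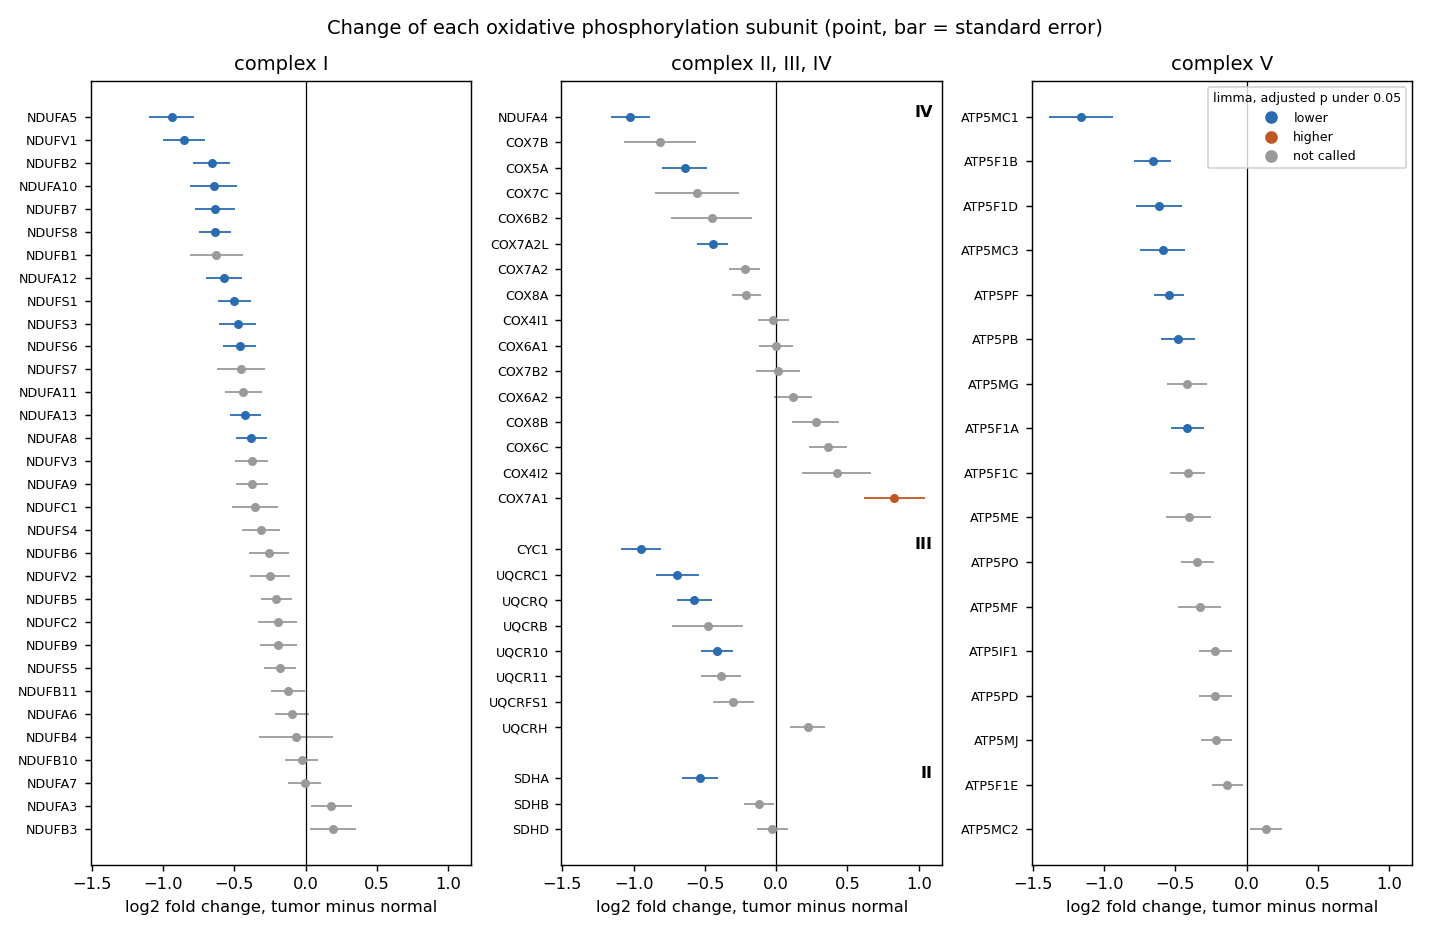
Log2 fold change (tumor minus normal, horizontal axis) of each of the 76 subunit genes, as points with standard errors, grouped by complex and coloured by the limma call at an adjusted p under 0.05. Most points lie to the left of 0, down to -1.16 for ATP5MC1, and COX7A1 at 0.83 is the 1 gene called higher.

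The samples of a group were not alike in these genes. Among normal samples, normal 1 was the lowest of its group in 61 of 76 members, whereas normal 2 was the highest in 33 and normal 3 in 35. Among tumor samples, tumor 3 was the highest of its group in 44 members and tumor 1 the lowest in 38. Against each gene's mean over the 6 samples, the median member stood at 0.07, 0.21 and 0.25 in the normal samples and at -0.26, -0.20 and -0.08 in the tumor samples. By this measure normal 1 and tumor 3 were the closest pair across the groups. The median SD of a member was 0.13 in both groups, and the SD was larger in normal cells in 41 of 76 members.

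**Figure D2:**
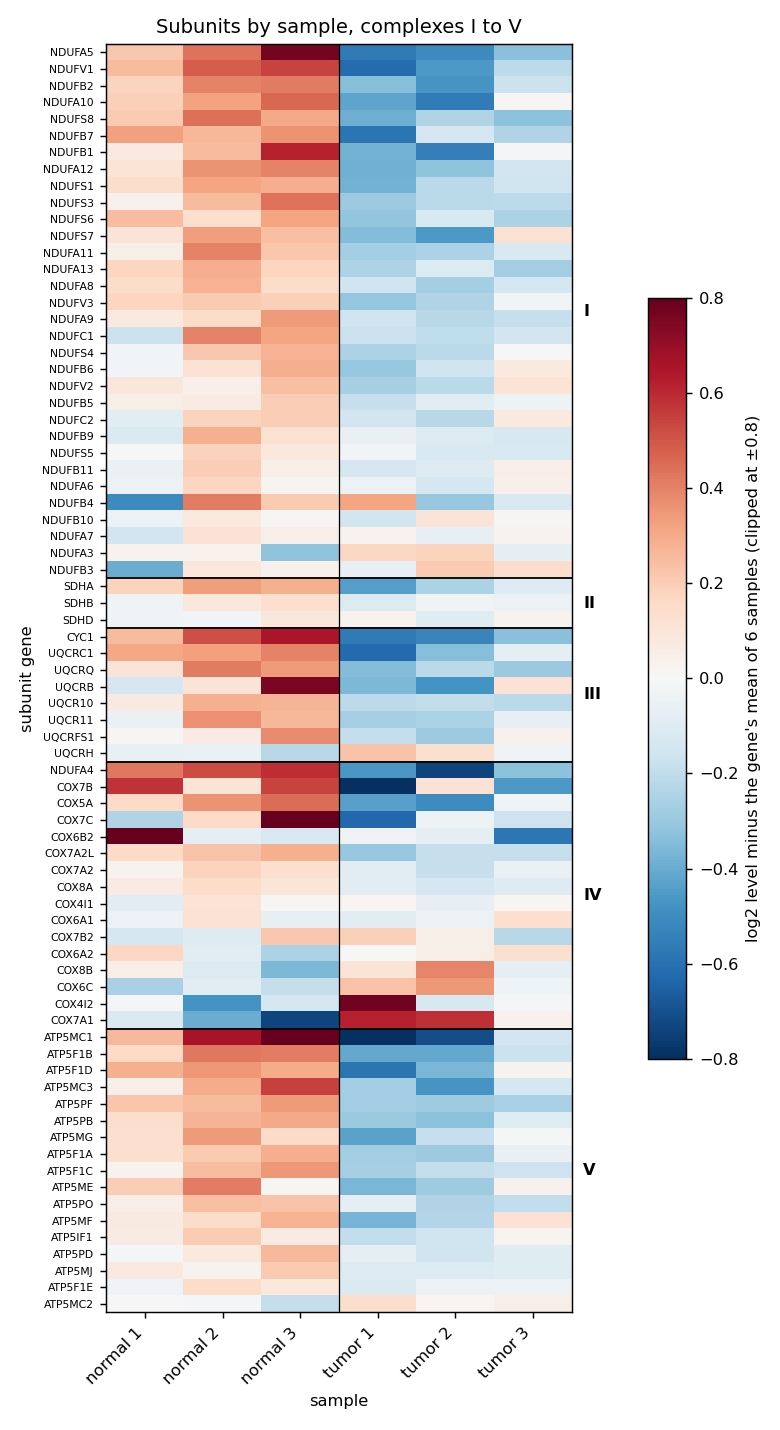
Heat map of the 76 subunit genes (rows, by complex and then by change) in the 3 normal and 3 tumor samples (columns). Colour gives the log2 level minus the gene's mean of the 6 samples, clipped at ±0.8. Normal samples are mostly red and tumor samples mostly blue, with paler colours in normal 1 and tumor 3 and a mixed pattern in complex IV.

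Complex I oxidises NADH in an arm that reaches into the matrix and pumps protons in an arm within the membrane. Of its 32 measured members 12 fell and 0 rose in limma (18 lower and 0 higher at an unadjusted p under 0.05), with a median of -0.38. Of all genes 9.44% fell, and 16.1% were lower at an unadjusted p under 0.05. The core subunits of the matrix arm carry the flavin and the iron-sulfur clusters. Of the 6 measured 4 fell, and their median difference was -0.49. NDUFV1, which binds NADH and the flavin, was at 8.14, 8.37 and 8.43 in the normal samples against 7.27, 7.43 and 7.68 in the samples from tumor. The groups lay well apart, and the level fell by 0.85 ± 0.15 (adjusted p = 0.00711, limma). NDUFS8, an iron-sulfur subunit next to the quinone site, was at 9.25, 9.48 and 9.34 against 8.65, 8.80 and 8.71. It too did not overlap between the groups, and the difference was -0.64 ± 0.12 (adjusted p = 0.0088, limma). NDUFS1, which holds several iron-sulfur clusters, and NDUFS3 fell by 0.50 ± 0.12 and 0.48 ± 0.13. NDUFS7 and NDUFV2 differed by -0.45 ± 0.17 and -0.25 ± 0.14 and did not pass; NDUFS7 passed without tumor 3 (adjusted p = 0.0273).

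The accessory subunits of complex I surround this core. In the matrix arm 3 of 8 fell, with a median of -0.38. NDUFA5 had the largest change of the complex, at 7.22, 7.44 and 7.77 in the normal samples against 6.44, 6.50 and 6.67 in the tumor samples. The lowest normal sample was above the highest tumor sample, and the level fell by 0.94 ± 0.16 (adjusted p = 0.00695, limma), a 1.92-fold change. NDUFA12 (-0.57 ± 0.13) and the zinc-binding subunit NDUFS6 (-0.46 ± 0.11) also fell. In the membrane arm 5 of 18 fell, with a median of -0.23. These were NDUFB2 (-0.66 ± 0.13), NDUFA10 (-0.65 ± 0.17), NDUFB7 (-0.64 ± 0.14), NDUFA13 (-0.42 ± 0.11), also known as the cell death regulator GRIM-19, and NDUFA8 (-0.38 ± 0.11). NDUFB2 was at 8.23, 8.45 and 8.47 in the normal samples against 7.71, 7.58 and 7.88 in the samples from tumor, with no overlap. Just outside the threshold lay NDUFA11 (-0.44 ± 0.13, adjusted p = 0.0515 in limma) and NDUFB1 (-0.63 ± 0.19, adjusted p = 0.0557). Both passed without normal 1 (adjusted p = 0.035 and 0.042), and NDUFB1 also without tumor 3 (adjusted p = 0.039). The members with the highest differences were NDUFB3 (0.19 ± 0.16) and NDUFA3 (0.18 ± 0.14). NDUFB3 was at 7.24, 7.72 and 7.67 in the normal samples against 7.57, 7.85 and 7.78 in the tumor samples, and NDUFA3 at 8.77, 8.77 and 8.42 against 8.91, 8.92 and 8.67. The groups overlapped in both.

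The calls of NDUFA5, NDUFV1 and NDUFS8 were kept whichever of the 6 samples was left out. That of NDUFB7 was lost without normal 2 and that of NDUFB2 without normal 2 or tumor 2. NDUFA12, NDUFS1 and NDUFA10 lost theirs without normal 2 or 3 or tumor 1 or 2, and NDUFS3 lost its call without any 1 sample but normal 1. NDUFS6, NDUFA13 and NDUFA8 lost theirs whichever sample was left out. Quantile normalization ended the call of NDUFA8 as well (adjusted p = 0.0662), median centring that of NDUFS3 (adjusted p = 0.0532), and a fit of all probe sets together both (adjusted p = 0.0588 and 0.0531). The number of the 32 complex I members that fell was 3 without normal 2, 5 without normal 3, 5 without tumor 1 and 4 without tumor 2. Of all genes, 4.94%, 7.01%, 5.52% and 5.43% fell in these fits.

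Complex II, the succinate dehydrogenase shared with the citric acid cycle, had 3 measured members. SDHA, the flavoprotein that oxidises succinate, was at 8.97, 9.13 and 9.08 in the normal samples against 8.35, 8.54 and 8.69 in the samples from tumor. It fell by 0.53 ± 0.13 (adjusted p = 0.0247, limma), a call lost without normal 2 or 3 or tumor 1 or 2 (adjusted p up to 0.095). SDHB, the iron-sulfur subunit, was at 9.25, 9.37 and 9.42 in the normal samples against 9.18, 9.26 and 9.24 in the tumor samples. SDHD, a membrane anchor, was at 8.54, 8.55 and 8.66 against 8.60, 8.47 and 8.60. The groups overlapped in both, with differences of -0.12 ± 0.11 and -0.03 ± 0.11.

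Complex III takes electrons from ubiquinol to cytochrome c. Of its 8 measured members 4 fell and 0 rose in limma (5 and 0 at an unadjusted p under 0.05), with a median of -0.45. The shares over all genes were 9.44% that fell and 16.1% lower at an unadjusted p under 0.05. CYC1, the cytochrome c1 that holds the heme next to cytochrome c, was at 9.34, 9.60 and 9.74 in the normal samples against 8.52, 8.56 and 8.75 in the samples from tumor. It had the largest change of the complex (-0.95 ± 0.14, adjusted p = 0.00396, limma), and its call was kept whichever sample was left out. The core protein UQCRC1 was at 8.95, 8.97 and 9.04 in the normal samples against 8.02, 8.30 and 8.56 in the tumor samples. It fell by 0.69 ± 0.15, a call lost without normal 2 or tumor 2.

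Among the small subunits of complex III, UQCRQ was at 6.57, 6.88 and 6.81 in the normal samples against 6.12, 6.25 and 6.17 in the samples from tumor, and fell by 0.57 ± 0.12. UQCR10 fell by 0.42 ± 0.11. The call of UQCRQ was lost without normal 2 or tumor 1, and that of UQCR10 without any 1 sample but normal 1. UQCRFS1, the Rieske iron-sulfur protein, differed by -0.30 ± 0.15 (adjusted p = 0.215, limma), with overlapping groups. UQCRH, the hinge protein beside cytochrome c1, went the other way. It was at 6.96, 6.97 and 6.80 in the normal samples against 7.25, 7.15 and 6.99 in the tumor samples, so every tumor sample was higher, but the difference of 0.22 ± 0.12 did not pass (adjusted p = 0.27, limma). The number of the 8 complex III members that fell was 1 without normal 2, 2 without tumor 1 and 2 without tumor 2. Of all genes, 4.94%, 5.52% and 5.43% fell in these fits.

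Complex IV, cytochrome c oxidase, had a mixed pattern. Of its 16 measured members 3 fell and 1 rose, 10 differences were below 0 and 6 above, and the median was -0.12. Over all genes 9.44% fell, 8.56% rose and 47.8% of differences were below 0. The difference between complex IV and the other complexes was not tested. NDUFA4, first assigned to complex I and now known as a subunit of complex IV, was at 9.17, 9.27 and 9.34 in the normal samples against 8.28, 8.01 and 8.42 in the samples from tumor. The lowest normal sample was well above the highest tumor sample, and the level fell by 1.02 ± 0.14 (adjusted p = 0.00261, limma), a 2.03-fold change kept whichever sample was left out. COX5A, which sits on the matrix face, was at 8.18, 8.38 and 8.47 in the normal samples against 7.59, 7.52 and 7.99 in the tumor samples. It fell by 0.64 ± 0.16. COX7A2L, which helps join complexes III and IV into supercomplexes, was at 9.31, 9.38 and 9.44 against 8.85, 8.97 and 8.97, and fell by 0.45 ± 0.11. The call of COX5A was lost without normal 2 or 3 or tumor 1 or 2 and that of COX7A2L without any 1 sample but normal 1. Only 1 of the 16 members fell without normal 2, normal 3 or tumor 1. In these fits 4.94%, 7.01% and 5.52% of all genes fell, so the count for complex IV was near the share over all genes.

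COX7A1, the form of subunit VIIa known from heart and skeletal muscle, was the 1 member of any complex that rose. It was at 5.78, 5.50 and 5.16 in the normal samples against 6.52, 6.48 and 5.93 in the samples from tumor. The groups did not overlap, and the rise of 0.83 ± 0.21 (adjusted p = 0.0318, limma) was lost without normal 2 or 3 or tumor 1 or 2 (adjusted p up to 0.108). Its widely expressed counterpart COX7A2 was at 8.86, 9.01 and 8.96 in the normal samples against 8.74, 8.65 and 8.78 in the tumor samples, a difference of -0.22 ± 0.11 (adjusted p = 0.218). The log2 ratio of COX7A1 to COX7A2 within a sample was higher in all tumor than in all normal samples, by 1.05. Such a ratio compares probes of different genes, so only its change between groups can be read.

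Other paired forms of complex IV subunits showed no called change. COX4I1, the usual form of subunit IV, was at 8.42, 8.61 and 8.51 in the normal samples against 8.52, 8.44 and 8.52 in the samples from tumor (-0.02 ± 0.11). COX4I2, a form known from lung and induced by low oxygen, was at 4.35, 3.89 and 4.23 against 5.14, 4.24 and 4.36 (0.42 ± 0.25). COX6A1 differed by -0.003 ± 0.12 and its muscle form COX6A2 by 0.12 ± 0.14. The muscle form COX8B and COX7B2, known from testis, lay under the olfactory receptor level in both groups. COX8A, the widely expressed form, differed by -0.21 ± 0.10 (adjusted p = 0.211), with every tumor sample below every normal sample. COX6C differed by 0.36 ± 0.13 (adjusted p = 0.103) and COX7B by -0.82 ± 0.25 (adjusted p = 0.0627). COX7B was dim, at 4.44, 3.97 and 4.40 against 2.98, 3.98 and 3.40, and its tumor mean of 3.45 lay under the olfactory receptor level, so the size of its difference is uncertain. Without tumor 2 it passed (adjusted p = 0.0237). COX7C and the testis form COX6B2 varied widely within groups (-0.56 ± 0.29 and -0.45 ± 0.28).

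NDUFA4L2, a paralog of NDUFA4 known to be induced by low oxygen, is not among the members but bears on the pair. It was at 7.03, 3.80 and 2.16 in the normal samples against 9.49, 9.57 and 9.30 in the tumor samples, and its rise of 5.12 ± 1.03 (adjusted p = 0.013, limma) was lost without normal 2 (adjusted p = 0.0536). The log2 ratio of NDUFA4 to NDUFA4L2 was 2.14, 5.47 and 7.18 in the normal samples against -1.21, -1.56 and -0.88 in the samples from tumor. NDUFA4L2 lay under the olfactory receptor level in normal 3, so the size of the ratio there, and of the rise, is uncertain. Normal 1, which had the highest NDUFA4L2 of its group, also had the lowest NDUFA4 of its group. It was, however, the lowest of its group in 61 of the 76 members, so this order was not particular to NDUFA4.

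**Figure D3:**
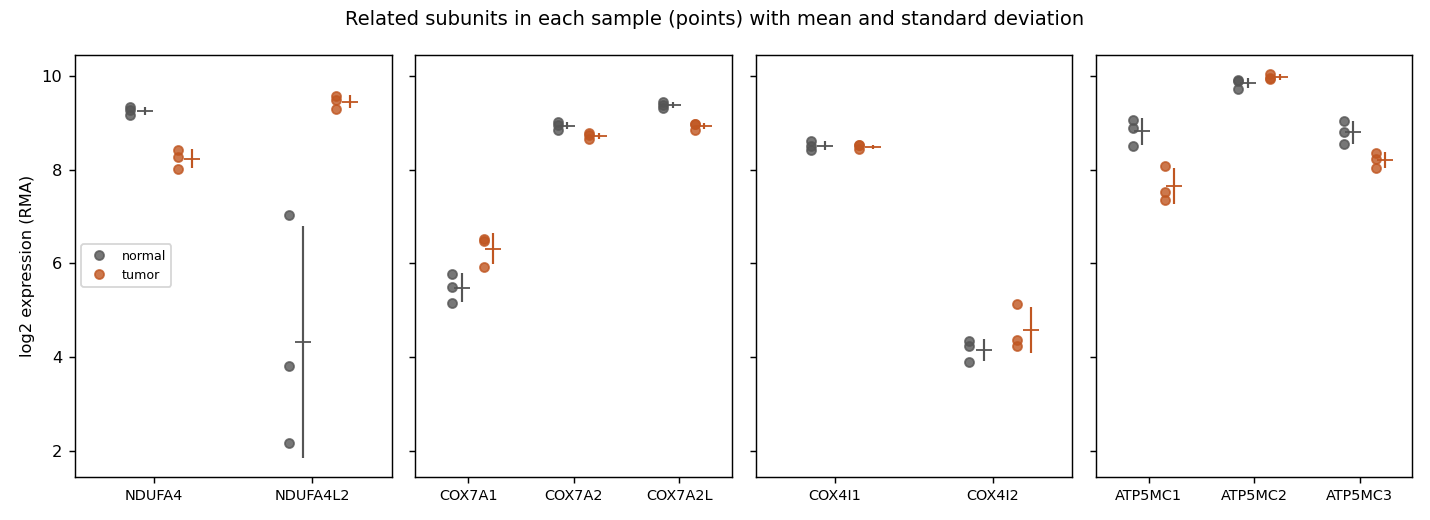
Log2 expression of related subunits in each sample (points), with the mean and standard deviation of the 3 normal (grey) and 3 tumor samples (orange) beside them. NDUFA4 is lower and NDUFA4L2 higher in tumor cells, COX7A1 is higher, COX7A2L lower, and ATP5MC1 and ATP5MC3 are lower while ATP5MC2 is not. Levels of different genes come from different probes and cannot be set against each other.

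Complex V, the ATP synthase, has a catalytic head in the matrix, a proton-driven ring of c subunits in the membrane and a peripheral stalk between them. Of its 17 measured members 7 fell and 0 rose in limma (11 and 0 at an unadjusted p under 0.05), with a median of -0.41, and every tumor sample lay below every normal sample in 14. Of all genes 9.44% fell, 16.1% were lower at an unadjusted p under 0.05 and 18.1% had every tumor sample below every normal sample. In the head with its central stalk 3 of 5 fell. ATP5F1B, the catalytic beta subunit, was at 10.58, 10.84 and 10.83 in the normal samples against 10.01, 10.01 and 10.25 in the tumor samples, and fell by 0.66 ± 0.13 (adjusted p = 0.0122, limma). ATP5F1D, the delta subunit, was at 7.88, 7.94 and 7.89 in the normal samples against 7.01, 7.23 and 7.62 in the samples from tumor, and fell by 0.62 ± 0.16. The alpha subunit ATP5F1A fell by 0.42 ± 0.12. The gamma subunit ATP5F1C (-0.41 ± 0.12, adjusted p = 0.0537) just missed the threshold, and passed without normal 1 (adjusted p = 0.0313). The epsilon subunit ATP5F1E, at 9.80, 9.97 and 9.91 in the normal samples against 9.71, 9.78 and 9.78 in the tumor samples, differed by -0.14 ± 0.11. Its other, dimmer probe set differed by 0.16, so its direction depended on the probe set.

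The c subunit is encoded by ATP5MC1, ATP5MC2 and ATP5MC3, which are known to give the same mature protein from precursors with different import sequences. ATP5MC1 and ATP5MC3 were called lower and ATP5MC2 was not called, which is not itself a test of a difference between the genes. ATP5MC1 was at 8.50, 8.90 and 9.07 in the normal samples against 7.36, 7.53 and 8.09 in the samples from tumor, and had the largest fall of all members (-1.16 ± 0.22, adjusted p = 0.0108, limma), a 2.24-fold change. ATP5MC3 was at 8.54, 8.80 and 9.05 against 8.23, 8.03 and 8.36, and fell by 0.59 ± 0.16 (adjusted p = 0.0397). ATP5MC2 was at 9.91, 9.90 and 9.72 in the normal samples against 10.05, 9.93 and 9.96 in the tumor samples, so that every tumor sample was slightly higher. Its difference of 0.14 ± 0.11 did not pass (adjusted p = 0.481).

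The log2 ratio of ATP5MC1 to ATP5MC2 within a sample was -1.41, -1.0 and -0.65 in the normal samples against -2.69, -2.40 and -1.87 in the samples from tumor, a change of -1.30. That of ATP5MC3 to ATP5MC2 changed by -0.73. Of 6 such ratios of related subunits, 4 did not overlap between the groups. Each of these 4 held a gene called in the same samples and the other 2 held none. The ratios are therefore no separate support for those calls. In an exact permutation test (two-sided) each of these 4 had p = 0.1, the smallest that 3 samples against 3 allow, and 0.15 after Benjamini-Hochberg adjustment over the 6. The ratios of COX4I2 to COX4I1 and of COX6A2 to COX6A1 overlapped between the groups and had p = 0.4 in the exact test.

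In the peripheral stalk 2 of 4 members fell. ATP5PF, coupling factor 6, was at 10.11, 10.14 and 10.23 in the normal samples against 9.61, 9.60 and 9.63 in the tumor samples. The tumor samples were nearly equal and well below the normal ones, and the level fell by 0.55 ± 0.10 (adjusted p = 0.0105, limma). ATP5PB, the b subunit, fell by 0.48 ± 0.12. The subunit OSCP, encoded by ATP5PO, differed by -0.35 ± 0.11 (adjusted p = 0.0764), and ATP5PD by -0.22 ± 0.12. Of the 4 small membrane subunits 0 were called in limma (2 lower at an unadjusted p under 0.05), with differences from -0.42 for ATP5MG to -0.21 for ATP5MJ. The inhibitor ATP5IF1, which holds back ATP hydrolysis, differed by -0.22 ± 0.12 (adjusted p = 0.252).

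The calls of ATP5MC1 and ATP5PF were kept whichever sample was left out. That of ATP5F1B was lost without normal 2 or tumor 2, and that of ATP5PB without normal 2 or 3 or tumor 1 or 2. ATP5MC3 lost its call without any 1 sample but normal 1, and ATP5F1D and ATP5F1A without any 1 but tumor 3. With all probe sets fitted together the calls of ATP5MC3 and ATP5F1A were lost (adjusted p = 0.0512 and 0.0582), and that of ATP5F1A also with median centring (adjusted p = 0.0512). The number of the 17 complex V members that fell was 2 without normal 2, 3 without normal 3, 3 without tumor 1 and 2 without tumor 2. The shares over all genes in these fits were 4.94%, 7.01%, 5.52% and 5.43%.

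Beside the subunits stand the factors that assemble them. Of 52 measured assembly factors 13 (25%) fell and 1 rose, against 9.44% and 8.56% of all genes, with a median of -0.23. For complex I 6 of 17 fell, among them NDUFAF8, at 6.16, 6.63 and 6.49 in the normal samples against 5.0, 5.01 and 5.31 in the samples from tumor (-1.32 ± 0.16, adjusted p = 0.00166, limma). NDUFAF4 (-1.27 ± 0.30) and TMEM126B (-1.16 ± 0.19) fell as well. The call of NDUFAF4 was lost without any 1 tumor sample, while those of NDUFAF8 and TMEM126B were kept in each such fit. For complex III 1 of 5 fell, BCS1L (-1.01 ± 0.19), which inserts the Rieske protein. A count of 1 does not show a change of that list.

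For complex IV 6 of 23 assembly factors fell. CMC2 fell by 0.93 ± 0.20, LRPPRC, which stabilises mitochondrial messenger RNA, by 0.81 ± 0.15 and the heme synthesis enzyme COX10 by 0.66 ± 0.13. The call of CMC2 was lost without normal 2 or tumor 1 or 2, and that of COX10 without normal 2 or tumor 2. Of 4 assembly factors of complex II, 0 were called in limma and 0 had an unadjusted p under 0.05. Of 3 assembly factors of complex V, TMEM70, which helps build the c ring, rose by 0.49 ± 0.12, a call lost without normal 2 or 3 or tumor 1 or 2. This count of 1 does not show a change of that list either. The number of the 52 assembly factors that fell was 7 without normal 2, 7 without tumor 1, 8 without tumor 2 and 8 without tumor 3. The shares over all genes in these fits were 4.94%, 5.52%, 5.43% and 7.13%.

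Cytochrome c itself, encoded by CYCS, was at 6.10, 6.28 and 6.34 in the normal samples against 4.89, 4.87 and 5.34 in the tumor samples. Its fall of 1.21 ± 0.16 (adjusted p = 0.00234, limma) stands beside that of 1.16 for ATP5MC1, and its call was kept whichever sample was left out. HIGD2A, a supercomplex factor, fell by 0.52 ± 0.14, a call lost with 4 of the 6 samples left out in turn (normal 2, normal 3, tumor 2 or tumor 3).

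Of 13 measured enzymes of the citric acid cycle, which supplies NADH to complex I, 6 fell and 0 rose in limma (9 lower and 0 higher at an unadjusted p under 0.05), with a median of -0.46. Over all genes 9.44% fell, and 16.1% were lower at an unadjusted p under 0.05. IDH3B, a subunit of the NAD-dependent isocitrate dehydrogenase, was at 7.65, 7.83 and 8.03 in the normal samples against 6.76, 6.82 and 6.89 in the samples from tumor and fell by 1.01 ± 0.13. The mitochondrial enzymes IDH2 and MDH2 fell by 0.84 ± 0.17 and 0.75 ± 0.13. The calls of these 3 genes were kept whichever sample was left out. The number of the 13 that fell was 3 without normal 2, tumor 1 or tumor 2, where 4.94%, 5.52% and 5.43% of all genes fell.

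Among 16 regulators of mitochondrial biogenesis 3 were lower and 1 higher, against 9.44% and 8.56% of all genes, with a median of -0.04. Counts this small do not show a change of the list. TFB1M, which methylates mitochondrial ribosomal RNA, was at 6.95, 7.01 and 7.18 in the normal samples against 6.03, 5.96 and 5.97 in the tumor samples and fell by 1.06 ± 0.11 (adjusted p = 0.00098, limma). The coactivator PPARGC1B (-0.87 ± 0.20) and the mitochondrial transcription factor TFB2M (-0.77 ± 0.22) fell too. PPARGC1A, the related coactivator PGC-1alpha, rose from 2.80, 2.47 and 2.62, under the olfactory receptor level, to 3.70, 3.95 and 4.49 (1.42 ± 0.21, adjusted p = 0.00375).

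4 factors known to act directly on nuclear or mitochondrial genes of respiration did not pass. NRF1 and its partner in this role GABPA, which bind promoters of many subunit genes, differed by -0.27 ± 0.15 and 0.32 ± 0.13 (adjusted p = 0.276 and 0.143, limma; 0.0408 for GABPA with array weights). ESRRA differed by -0.15 ± 0.14 and TFAM, which packages mitochondrial DNA, by 0.05 ± 0.15. The call of PPARGC1B was lost without normal 2 or tumor 1 or 2, and that of TFB2M without these or normal 3 (adjusted p up to 0.147). TFB2M also lost its call with quantile normalization, median centring or all probe sets fitted together (adjusted p = 0.0562, 0.0521 and 0.0597). The number of the 16 regulators that fell was 1 without normal 2, tumor 1 or tumor 2. In these fits 4.94%, 5.52% and 5.43% of all genes fell, so the count was near the share over all genes.

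**Figure D4:**
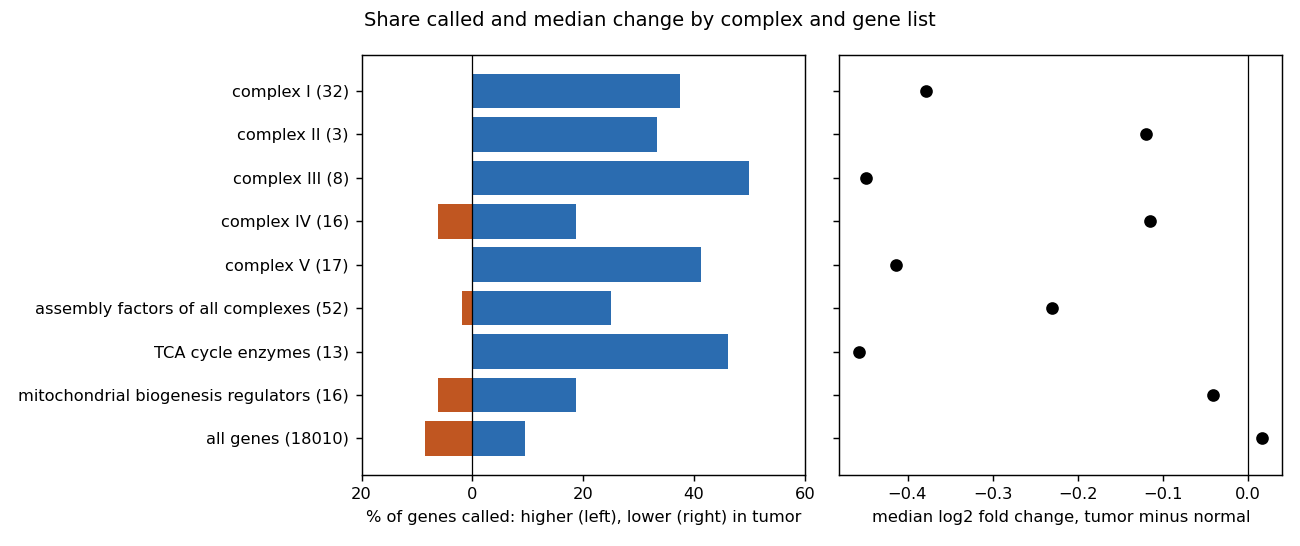
Left, the share of measured genes called lower (blue, to the right) and higher (orange, to the left) in tumor cells for each complex and for 3 related gene lists, with all 18010 genes at the bottom and the number of genes in brackets. Right, the median log2 fold change of the same sets. Complexes I, III and V have medians of -0.38, -0.45 and -0.41, complex IV -0.12, and all genes 0.02.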

How the data were processed

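Biotin-labelled RNA of 6 samples was hybridised to microarrays, per the labels' protocols. Per the submitters' processing notes, RMA gave the deposited log2 expression levels; its version is not given in the sources used here. Samples were grouped by title. Gene names came from the annotation of the platform, possibly outdated: 18457 of 24415 probe sets had 1 symbol and gave 18010 genes, and all 76 members matched the RefSeq table of assembly ARS-UCD2.0 by Entrez identifier. Subunit genes often have processed pseudogenes, whose transcripts these probes may share. No filter on low values was applied.

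The main comparison used limma 3.58.1 under R 4.3.3, fitting group alone with lmFit and eBayes and two-sided tests, with Benjamini-Hochberg adjustment over all genes and a threshold of 0.05. The fit was tested on simulated data with known changes. NDUFA4 was counted in complex IV. Named genes were all called members, the highest 2 differences per complex, tissue isoforms, and up to 3 called genes of each other list; TFB2M and further members outside this rule, and regulators that were not called, were added after their values were seen. Members and lists were chosen with earlier results of these data known. Alternatives were quantile normalization, median centring, 2 filters on dim genes, a mean-variance trend, array weights, a replicate block, other thresholds, other uses of probe sets, and leaving out each sample. The number of arrays limits the precision. Scan dates were not used here, and batches were not examined.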

Additional observations from a re-analysis of the deposited data

How the results depend on the processing

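With all 6 samples kept, the number of members that fell stayed between 21 and 39 (27.6% to 51.3% of those tested, against 8.38% to 14.9% of all genes) under 10 of the 11 other alternatives, and was 5 (6.58% against 3.53%) at an adjusted p of 0.01. At that threshold 3 members of complex I, 1 of complex III, 1 of complex IV and 0 of complexes II and V fell, and 0 members rose in limma. Array weights gave 19 in complex I and 11 in complex V, with 2692 genes lower over the whole table against 1700. Leaving out 1 sample gave 7 to 27 members that fell in all, 3 to 12 in complex I, 0 to 1 in complex II, 1 to 5 in complex III, 1 to 3 in complex IV and 2 to 6 in complex V, and 0 to 1 that rose. These fits have fewer samples, and 4.94% to 9.86% of all genes fell in them. The median over members was below 0 in each of the 17 alternatives, but some of them could not move it. Thresholds of 0.1 and 0.01, the trend, the replicate block and the joint fit of all probe sets left each difference unchanged. Averaging over probe sets could alter only ATP5F1E among members. In all of these the median was -0.38, as in the main fit. Under the rest it ran from -0.41 (without normal 1) to -0.31 (without normal 3). The replicate block left 21 members lower, 9 of them in complex I; same-numbered samples deviated from their group means with correlations of 0.05, -0.08 and 0.07 over all genes and 0.22, -0.21 and 0.46 over members. These did not exceed 0.1 in every pair and the labels state no pairing, so none was assumed. Among members, the block ended the calls of ATP5F1A, COX7A2L, NDUFA13, NDUFA8, NDUFS3, NDUFS6 and UQCR10 and made that of NDUFB1; of the other named genes it ended those of HIGD2A, KRT8 and MYH11. ATP5MG passed with quantile normalization, a mean-variance trend or array weights, and ATP5PO with a trend or weights; the cause was not tested. Directions turned in genes whose difference was near 0. ATP5F1E differed by 0.01 with the mean of its probe sets. With quantile normalization COX7B2 differed by -0.03, COL1A1 by -0.11 and COL1A2 by -0.16. With median centring COX7B2 and COL1A1 each differed by -0.01. With array weights COL1A1 differed by -0.06, COL1A2 by -0.01 and LUM by 0.00. With 1 sample left out, COX7B2 ran from -0.08 to 0.12, COX4I1 from -0.07 to 0.03, COX6A1 from -0.07 to 0.06, SDHD from -0.05 to 0.02, TFAM from -0.03 to 0.20, COL1A1 from -0.04 to 0.06, LUM from -0.08 to 0.04, EPCAM from -0.02 to 0.13 and PTPRC from -0.11 to 0.01. The filter at the olfactory receptor level was chosen after seeing the data and gave 32 members that fell.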
